A study of Anas platyrhynchos with 5 samples.

Results

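Feather bulbs of a black duck breed, Cui Hei, were compared with feather bulbs of a pair of pure white breeds, Kaiya and Liancheng, at the level of mature miRNAs. A miRNA was kept when Cui Hei stood above both white breeds, or below both, by more than the white breeds differed from each other. Of 134 mature miRNA names in the tables, 109 were listed in all 3 pure breed libraries and had at least 50 reads in them together, and 23 of these met the rule. They are called members here. Members higher in Cui Hei numbered 12, and 11 were lower.

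The ducks (Anas platyrhynchos) were 12 months old, and the series holds 5 small RNA libraries of feather bulbs, the base of the growing feather. The Cui Hei library is the only one of pure black plumage, and Kaiya and Liancheng are the libraries of pure white plumage. The F2 of a cross of Kaiya with Liancheng gave 1 library from black birds and 1 from white birds. Those F2 libraries were not used to choose members, and their black birds descend from the white breeds, not from Cui Hei. From every duck 3 bulbs were combined, and the ducks of a breed were then combined into 1 library, with the number of ducks not stated. Breed, pool, library and plumage colour therefore cannot be told apart in the pure breeds, and no difference between Cui Hei and the white breeds has a test. Replicate spread is unknown. Intervals are exact Clopper-Pearson based intervals at the 95% level. They cover counting error only, since each breed and each F2 colour is 1 library. The reads carry no molecular identifiers, so amplification copies count as separate reads and the intervals may be too narrow.

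A miRNA is cut from a hairpin precursor with a 5p and a 3p arm, and usually most of the product comes from 1 arm. Its seed, bases 2 to 8, pairs with target mRNAs, so miRNAs with the same seed are grouped as a family. In a feather bulb, melanocytes make pigment and pass it to the keratinocytes that form the barbs, and white plumage can follow from missing melanocytes or from melanocytes that make no pigment. In mammals miR-211, which has the seed of miR-204, lies in an intron of the melanocyte gene TRPM1 and is controlled by the melanocyte regulator MITF. The files' name miR-204 was not checked, so whether the hairpin named mir-204 here is that of miR-204 or of miR-211 was not settled. In a bulk library fewer cells of a type and less RNA per cell cannot be told apart.

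The sequences below are those listed in the deposited tables, with the seed in capitals. The first set holds the 5 members that met the rule under every scaling tried and passed a check of the counting interval. In that check the interval of the nearer ratio lay beyond the point value of the gap between the white breeds. The gap's own counting error was left out.
miR-204-5p: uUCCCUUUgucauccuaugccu
miR-204-3p: gCAGGGACagcaaagggaugcuc
unassigned-3-5p: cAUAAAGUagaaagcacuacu
unassigned-7-5p: uUCCAGUCcauguaccaucagu
miR-449c-2-5p: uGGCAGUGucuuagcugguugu
Names that begin with "unassigned" stand for hairpins to which the files give a number and no family, and no role is given for them here. The 5 sequences have 5 different seeds. Only miR-449c-2-5p shared its seed with another rated miRNA, miR-449c-1-5p. The files number that miRNA as a copy, and it was not a member.
miR-449c-1-5p: aGGCAGUGuguuguucgguggcugc
The hairpins of the leading member and of the unassigned pair are shown with both arms in capitals, because the arms are compared further on.
mir-204: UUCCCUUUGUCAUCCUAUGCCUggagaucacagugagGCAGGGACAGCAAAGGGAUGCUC
unassigned-3: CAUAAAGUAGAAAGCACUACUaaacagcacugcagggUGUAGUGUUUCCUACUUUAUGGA
unassigned-7: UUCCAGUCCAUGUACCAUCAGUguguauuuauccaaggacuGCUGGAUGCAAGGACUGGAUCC

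Between 1601329 reads in Liancheng and 4269854 reads in Kaiya were counted on mature miRNAs, with 3476838 reads in Cui Hei, so a level of 3 reads, the floor used here, lay between 0.770 and 1.82 CPM, which is read counts scaled to a common library total in the pure breed libraries. Levels are CPM after TMM normalisation, which scales libraries to a common level of the bulk of miRNAs. The 109 rated miRNAs held 99.99% of the Cui Hei reads. Epithelial miRNAs were high in every pure breed library, with miR-205b-5p at 73559 CPM in Cui Hei, 92993 CPM in Kaiya and 71305 CPM in Liancheng. No rated name belonged to the liver miRNA miR-122.

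miR-204-5p stood far above all other members. It had 43560 reads in Cui Hei, against 426 in Kaiya and 194 in Liancheng, which gave 12076 CPM in Cui Hei, 109 CPM in Kaiya and 117 CPM in Liancheng. The log2 ratio of Cui Hei was 6.79 to Kaiya (6.65 to 6.93) and 6.69 to Liancheng (6.48 to 6.90), while the white breeds differed from each other by -0.10 (Kaiya over Liancheng). The level in Cui Hei was 107-fold the geometric mean of the white breeds. In the F2, which the rule did not use, miR-204-5p had 8711 CPM in black birds and 100.6 CPM in white birds, a log2 ratio of 6.44 (6.27 to 6.61). The F2 black library lay below Cui Hei and the F2 white library lay slightly below both white breeds.

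The other arm, miR-204-3p, had 104 reads in Cui Hei, 3 in Kaiya and 1 in Liancheng. Its levels were 28.8 CPM in Cui Hei, 0.770 CPM in Kaiya and 0.605 CPM in Liancheng, so both white breeds were at or under the floor. Its log2 ratio was 5.23 to Kaiya, with a counting interval of 3.64 to 7.53, and 5.58 to Liancheng, with an interval of 3.07 to 10.89. The gap between the white breeds was 0.35, but its own interval of -3.29 to 6.06 was wide. In the F2 the arm had 58 reads in black birds and 2 in white birds, a log2 ratio of 5.26 (3.34 to 8.34). The ratio of 5p to 3p reads of mir-204 was 419 in Cui Hei, 142 in Kaiya and 194 in Liancheng. The 3p arm held 0.238% of the mir-204 reads in Cui Hei (0.195% to 0.289%), inside the intervals of Kaiya (0.144% to 2.03%) and Liancheng (0.0130% to 2.82%), so no shift between the arms was detectable at this depth.

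These arms were the only rated miRNAs at least 2-fold from both white breeds in the same direction, 2 of 109 or 1.83%. They share a hairpin and are not independent. miR-204-3p met the read minimum only through Cui Hei, which held 104 of its 108 reads in the pure breed libraries. At a minimum of 200 reads the count was 1. The size of 2-fold is the log2 criterion of 1 stated in the series' design text.

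**Figure D1:**
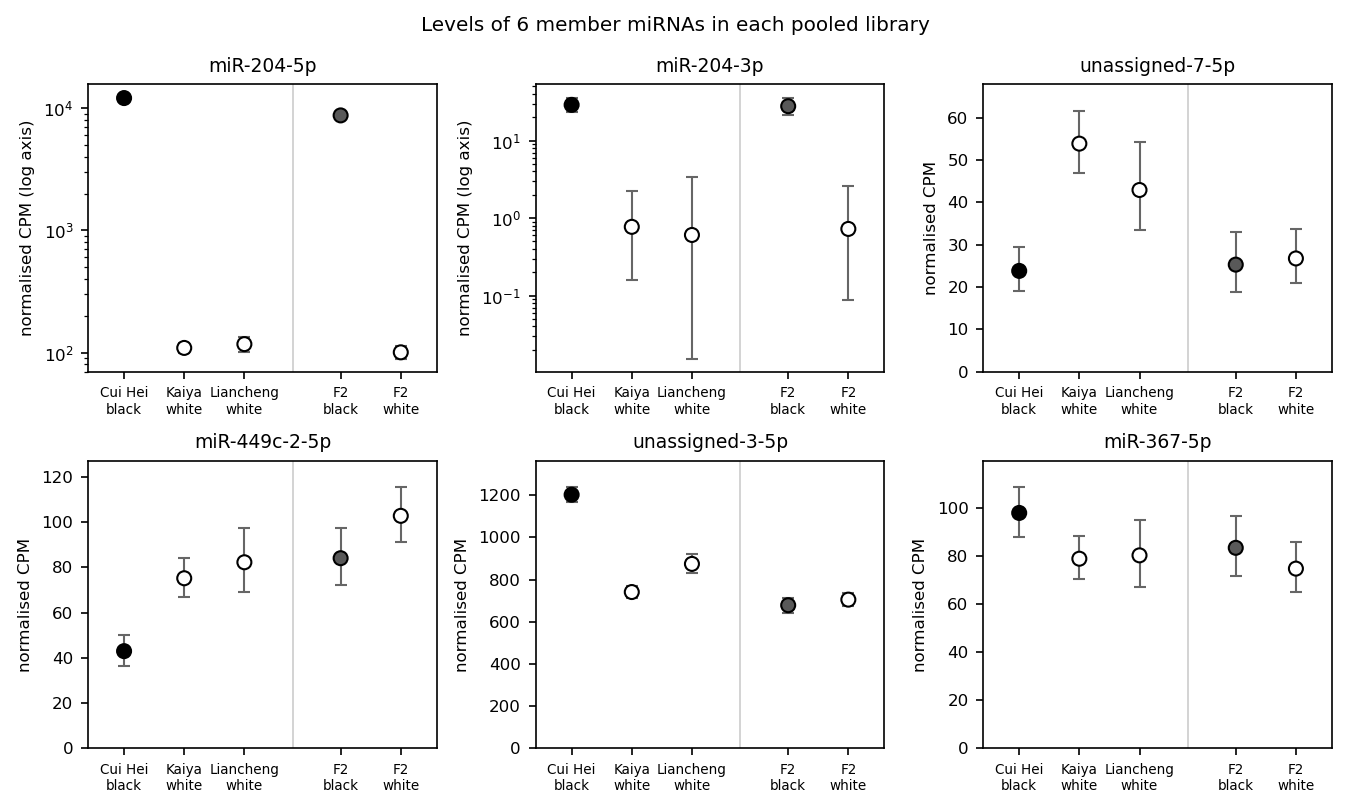
Levels of the 6 members that met the rule under every scaling, in TMM-normalised CPM on the vertical axes (log axes for the miR-204 arms), for Cui Hei, Kaiya and Liancheng to the left of the line and the F2 black and white libraries to the right. Points are single pooled libraries and bars are 95% exact Poisson intervals, which cover counting error only. For miR-204-5p the Cui Hei and F2 black points lie at 12076 and 8711 CPM, above all white points, whereas for unassigned-3-5p the F2 points lie at 678 and 705 CPM, below the white breeds.

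Apart from miR-204, the members lay less than 2-fold from at least 1 white breed. The distance to the nearer white breed, as an absolute log2 ratio, had a median of 0.14 over the other 21 members and a highest value of 0.85. It was 0.4 to 1 in 3 members, 0.2 to 0.4 in 3, 0.1 to 0.2 in 11 and below 0.1 in 4. The lowest was 0.027 for miR-214-5p. The interval of the nearer ratio lay clear of 0 in 13 of 23 members. It lay beyond the point value of the gap between the white breeds in 10, of which 6 were higher and 4 lower in Cui Hei. Counting error of the gap itself was not applied.

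The rule also rests on how close the white breeds were. Of the 109 rated miRNAs, 54 lay outside the range of the white breeds, 28 above and 26 below, and 55 lay between them. Of the 54, 31 were no further from the nearer white breed than the white breeds were from each other and so failed. The 23 members made up 21.1% of the rated miRNAs, the 12 higher ones 11.0% and the 11 lower ones 10.1%. By construction members had close white breeds, with a median gap of 0.10 on the log2 scale, against 0.37 for the other rated miRNAs. In 21 of 23 members the gap was below the median of all rated miRNAs, 0.32.

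The split by direction depended on the scaling. With library size alone in place of TMM, the median log2 ratio of all rated miRNAs was 0.11 in place of 0.02, and 21 miRNAs were higher and 6 lower in Cui Hei. Of the 23 members, 9 met the rule with library size alone. Under DESeq2 size factors 18 of 23 did, under upper-quartile scaling 12, and under TMM without the most abundant miRNA 15. All 23 did under TMM over the 3 pure breed libraries, but this setting left the ratios among those libraries unchanged and so could lose no member. The members that met the rule under all 5 alternatives were 6, namely miR-204-5p, miR-204-3p, unassigned-3-5p and miR-367-5p on the higher side and unassigned-7-5p and miR-449c-2-5p on the lower side.

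**Figure D2:**
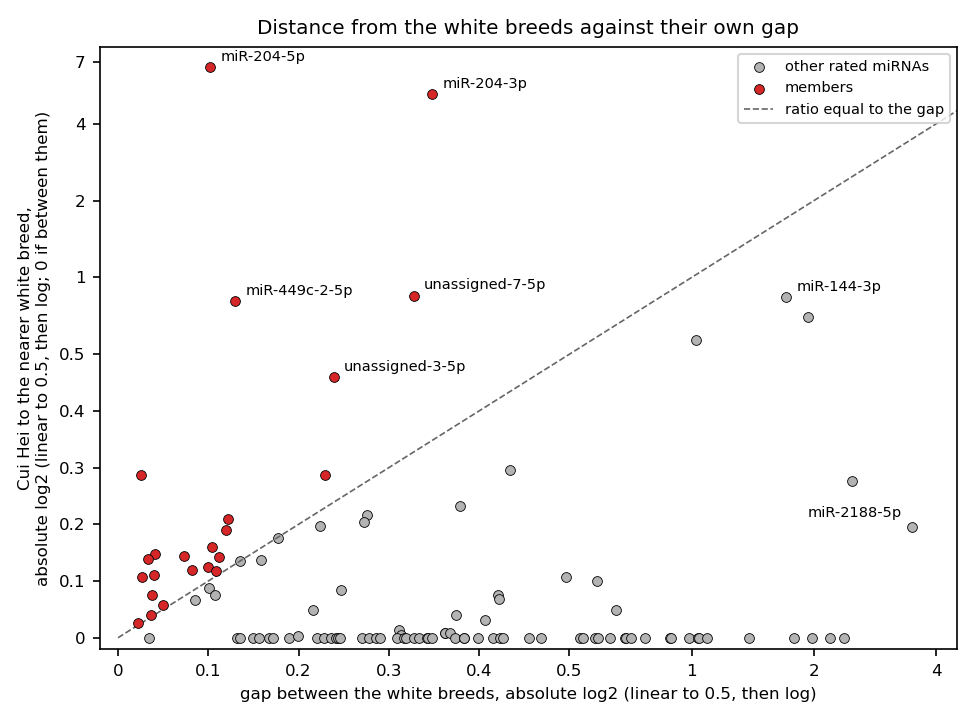
Each point is 1 of the 109 rated miRNAs, with the absolute log2 ratio of Kaiya over Liancheng on the horizontal axis and the absolute log2 ratio of Cui Hei to the nearer white breed on the vertical axis (0 where Cui Hei lies between them); both axes are linear to 0.5 and logarithmic beyond. The 23 members, in red, lie above the dashed line, most of them with a gap and a distance below 0.3, and 5 of them lie at a distance above 0.4.

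After miR-204, the member furthest above the white breeds was unassigned-3-5p. It had 4334 reads in Cui Hei, 2886 in Kaiya and 1445 in Liancheng, or 1202 CPM in Cui Hei, 741 CPM in Kaiya and 874 CPM in Liancheng. Its log2 ratio was 0.70 to Kaiya (0.63 to 0.77) and 0.46 to Liancheng (0.37 to 0.55), with a gap of -0.24. In the F2 it did not separate the colours, with 678 CPM in black birds and 705 CPM in white birds, a log2 ratio of -0.055 whose interval of -0.155 to 0.044 held 0. Only the 5p arm met the rule. The 3p arm stood at 83.5 CPM in Cui Hei, 85.2 CPM in Kaiya and 76.8 CPM in Liancheng, which gave log2 ratios of -0.03 to Kaiya and 0.12 to Liancheng. Reads of the 5p arm were 14.4 times those of the 3p arm in Cui Hei, 8.69 times in Kaiya and 11.4 times in Liancheng, and 9.40 times in F2 black and 13.3 times in F2 white birds. On the log2 scale this arm ratio in Cui Hei differed by 0.73 from Kaiya (0.49 to 0.97) and by 0.34 from Liancheng (0.016 to 0.66). The white breeds differed by -0.39, more than Cui Hei did from Liancheng, so no arm difference beyond their gap was seen.

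Furthest below the white breeds was unassigned-7-5p, on few reads. It had 86 reads in Cui Hei, 210 in Kaiya and 71 in Liancheng, or 23.8 CPM in Cui Hei, 53.9 CPM in Kaiya and 43.0 CPM in Liancheng. Its log2 ratio was -1.18 to Kaiya (-1.56 to -0.81) and -0.85 to Liancheng (-1.32 to -0.37), with a gap of 0.33 (-0.067 to 0.74). With counting error on both sides, its distance to Liancheng was thus not clear of the gap. In the F2 the levels were 25.3 CPM in black birds and 26.8 CPM in white birds, both close to that of Cui Hei and below those of both white breeds, with a log2 ratio of -0.08. Its 3p arm had 16 reads in Cui Hei, 43 in Kaiya and 7 in Liancheng, so it stood below Kaiya (-1.32) and level with Liancheng (0.07).

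miR-449c-2-5p, placed by its name in the files in the miR-34 and miR-449c family, was also lower in Cui Hei. That name was not checked, and no role is given for this member here. It had 155 reads in Cui Hei, 293 in Kaiya and 136 in Liancheng, or 43.0 CPM in Cui Hei, 75.2 CPM in Kaiya and 82.3 CPM in Liancheng. Its log2 ratio was -0.81 to Kaiya (-1.10 to -0.52) and -0.94 to Liancheng (-1.28 to -0.59), with a gap of -0.13. In the F2 it had 84.1 CPM in black birds and 102.8 CPM in white birds, a log2 ratio of -0.29 (-0.57 to -0.014). The F2 black library was thus at the level of the white breeds, not at that of Cui Hei. miR-449c-1-5p, which has the same seed, had 73.5 CPM in Cui Hei, 104 CPM in Kaiya and 77.4 CPM in Liancheng. It fell short of the rule with log2 ratios of -0.50 and -0.08. The 3p arm of mir-449c-2 had 55 reads in the 3 libraries together.

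miR-367-5p met the rule under every scaling but with a small distance. It had 354 reads in Cui Hei, 308 in Kaiya and 133 in Liancheng, or 98.1 CPM in Cui Hei, 79.0 CPM in Kaiya and 80.5 CPM in Liancheng. The mean of its log2 ratios was 0.30, and the interval of its ratio to Liancheng held 0 (-0.0049 to 0.5854). In the F2 it had 83.6 CPM in black birds and 74.9 CPM in white birds, a log2 ratio of 0.16. The main arm, which the files name miR-367-3p, lay between the white breeds, at 38241 CPM in Cui Hei, 42945 CPM in Kaiya and 35231 CPM in Liancheng.

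**Figure D3:**
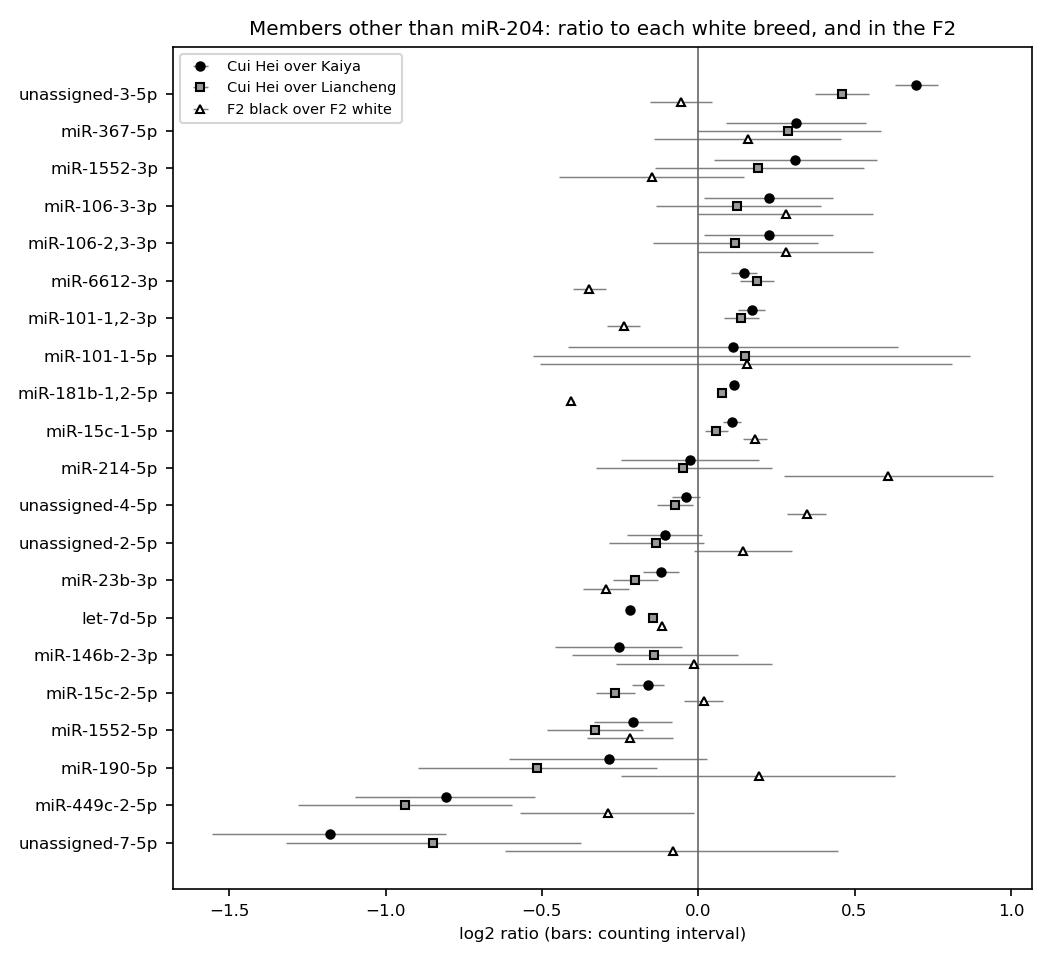
Log2 ratios of the 21 members other than miR-204, with Cui Hei over Kaiya (circles), Cui Hei over Liancheng (squares) and F2 black over F2 white (triangles) on the horizontal axis; bars are counting intervals at the 95% level. Circles and squares lie on the same side of 0 by the rule, from -1.18 for unassigned-7-5p to 0.70 for unassigned-3-5p, while 10 of the 21 triangles lie on the other side.

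Several abundant miRNAs were members with small ratios on many reads. let-7d-5p, of the let-7 family that holds back proliferation and marks differentiated cells in animals, was lower in Cui Hei. It had 81948 CPM in Cui Hei, 95286 CPM in Kaiya and 90598 CPM in Liancheng, with log2 ratios of -0.22 and -0.14. This is the largest difference on the CPM scale on the lower side among the members, -10994 CPM against the mean of the white breeds, next to 11963 CPM for miR-204-5p on the higher side. In the F2 let-7d-5p had 85741 CPM in black birds and 92831 CPM in white birds (log2 ratio -0.11). miR-181b-1,2-5p, of a family studied in lymphocyte development in mammals, had 74988 CPM in Cui Hei, 69319 CPM in Kaiya and 71162 CPM in Liancheng, with log2 ratios of 0.11 and 0.08. Its order was the opposite in the F2, with 60537 CPM in black birds and 80250 CPM in white birds, a log2 ratio of -0.41. Under library size alone and under upper-quartile scaling neither let-7d-5p nor miR-181b-1,2-5p met the rule.

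The members together took 19.4% of the reads in Cui Hei, 16.6% in Kaiya and 18.5% in Liancheng. The 12 higher ones took 10.3% in Cui Hei, 7.31% in Kaiya and 8.50% in Liancheng, and the 11 lower ones 9.10% in Cui Hei, 9.27% in Kaiya and 10.0% in Liancheng.

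The arms of mir-1552 were members in opposite directions. The main arm miR-1552-5p had 264 CPM in Cui Hei, 305 CPM in Kaiya and 332 CPM in Liancheng. The minor arm miR-1552-3p had 73.2 CPM in Cui Hei, 59.0 CPM in Kaiya and 64.1 CPM in Liancheng.
miR-1552-5p: uUAGUGCGcaguaagcuagggug
miR-1552-3p: cGCUAGCUgcucugcacuaacu
The ratio of 5p to 3p reads, which needs no scaling between libraries, was 3.61 in Cui Hei, 5.17 in Kaiya and 5.18 in Liancheng. On the log2 scale Cui Hei differed by -0.52 from Kaiya (-0.81 to -0.23) and by -0.52 from Liancheng (-0.90 to -0.16), while the white breeds differed by -0.003. The F2 libraries lay between Cui Hei and the white breeds and close to each other, with a ratio of 4.41 in black birds and 4.62 in white birds. With a lower 5p and a higher 3p member, a ratio below that of both white breeds followed from the rule. The values are therefore a description and no support for a shift between the arms. The intervals cover counting error alone, and this hairpin was singled out among 13 after the values were seen.

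The other arm was rated for 19 of the 23 members, and it was also a member for 6. The share of members among all rated miRNAs was 21.1%. Hairpins with both arms as members numbered 3, namely mir-204 and mir-101-1 with both arms higher and mir-1552. miR-101, whose mammalian form is known to target MITF in melanoma cells, had its main arm miR-101-1,2-3p at 2432 CPM in Cui Hei, 2159 CPM in Kaiya and 2210 CPM in Liancheng. The mean log2 ratio of that arm was 0.15, and it was -0.24 in the F2, with 2253 CPM in black birds and 2657 CPM in white birds. The minor arm miR-101-1-5p rested on 63 reads in Cui Hei, 63 in Kaiya and 26 in Liancheng, with both intervals spanning 0.

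A single seed was carried by more than 1 member. miR-15c-2-5p and miR-15c-1-5p, of the miR-15/16 family that restrains the cell cycle in mammals, carry the seed AGCAGCA and were members in opposite directions.
miR-15c-2-5p: uAGCAGCAcguaaauauuggug
miR-15c-1-5p: uAGCAGCAcaucaugguuugua
miR-15c-2-5p had 1595 CPM in Cui Hei, 1783 CPM in Kaiya and 1916 CPM in Liancheng, a mean log2 ratio of -0.21. miR-15c-1-5p had 5517 CPM in Cui Hei, 5122 CPM in Kaiya and 5301 CPM in Liancheng, a mean log2 ratio of 0.08. In the F2 their log2 ratios were 0.02 for miR-15c-2-5p and 0.18 for miR-15c-1-5p.

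Members miR-106-3-3p and miR-106-2,3-3p count as 1 signal. Their sequences overlap with a shift of 1 base, and both list 407 reads in Cui Hei and 376 in Kaiya, with 171 and 172 in Liancheng.
miR-106-3-3p: cUGCAGUGaaggcacuuguagca
miR-106-2,3-3p: aCUGCAGUgaaggcacuugua
miR-106-3-3p stood at 113 CPM in Cui Hei, 96.5 CPM in Kaiya and 103.4 CPM in Liancheng, with a mean log2 ratio of 0.18 and a value of 0.28 in the F2. The main arm miR-106-2,3-5p, of the cell cycle promoting miR-17 family, lay between the white breeds, at 512 CPM in Cui Hei, 574 CPM in Kaiya and 490 CPM in Liancheng. miR-106-3p, which has the seed of miR-106-2,3-3p, lay between them as well, at 186 CPM in Cui Hei, 187 CPM in Kaiya and 151 CPM in Liancheng.

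The remaining members are the minor ones. miR-6612-3p had 2600 CPM in Cui Hei, 2348 CPM in Kaiya and 2282 CPM in Liancheng, a mean log2 ratio of 0.17, and the opposite order in the F2 (2247 CPM in black and 2861 CPM in white birds, log2 ratio -0.35). miR-190-5p had 148 reads in Cui Hei, 195 in Kaiya and 97 in Liancheng and a mean log2 ratio of -0.40, with the interval of its ratio to Kaiya spanning 0 (-0.60 to 0.03). miR-23b-3p, of the miR-23/27/24 clusters, had 1256 CPM in Cui Hei, 1364 CPM in Kaiya and 1443 CPM in Liancheng, and was lower in black than in white F2 birds too (1189 and 1459 CPM, log2 ratio -0.29). miR-146b-2-3p, the minor arm of a miRNA of the NF-kappaB response, had a mean log2 ratio of -0.20 and unassigned-2-5p one of -0.12. Members closest to the edge of the rule on its inner side were miR-15c-1-5p, miR-214-5p (91.2 CPM in Cui Hei, 92.9 CPM in Kaiya and 94.4 CPM in Liancheng) and unassigned-4-5p (2065 CPM in Cui Hei, 2123 CPM in Kaiya and 2176 CPM in Liancheng). The mean log2 ratios of miR-214-5p (-0.04) and unassigned-4-5p (-0.06) turned positive under library size alone, and that of miR-214-5p under upper-quartile scaling too. Just outside were miR-103-2-3p, with ratios of 0.13 and 0.27 and a gap of 0.13, miR-146b-1,2-5p, with ratios of -0.35 and -0.18 and a gap of 0.18, and miR-148a-3p, with ratios of -0.09 and -0.19 and a gap of 0.10.

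**Figure D4:**
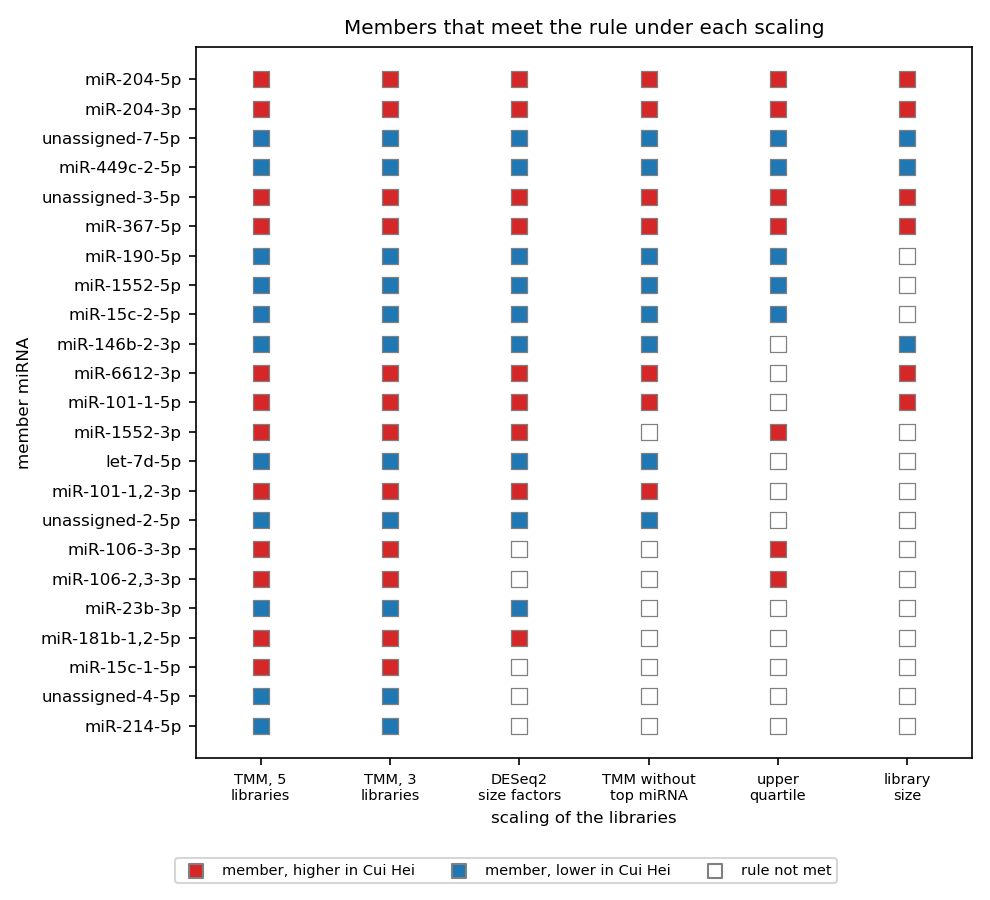
Each row is 1 of the 23 members and each column a scaling of the libraries, with TMM over all 5 libraries at the left. Filled squares mark a miRNA that met the rule, red for higher and blue for lower in Cui Hei, and open squares one that did not. The upper 6 rows are filled throughout, and the last column, library size alone, holds 9 filled squares.

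The F2 libraries gave the only check of colour outside the pure breeds, with 1 library for each colour and no test. The sign of the F2 black over F2 white ratio was that of the pure breed mean for 13 of the 23 members (56.5%), against 65 of the 109 rated miRNAs (59.6%) and 52 of the 86 others (60.5%). The share in the members was thus near that of all rated miRNAs. Without the miR-204 arms it was 11 of 21. The same sign was found for 7 of the 12 higher and 6 of the 11 lower members. Of the 6 members that met the rule under every scaling, only the miR-204 arms were at least 2-fold apart in the F2 as well.

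Members and the other rated miRNAs were also set side by side in sequence properties, which the rule did not use. The 5p arm made up 15 of the 23 members and 39 of the 86 others. It was 9 of the 11 lower members and 6 of the 12 higher ones. The first base was U in 7 of the 11 lower members, 2 of the 12 higher ones and 37 of the 86 others. The median GC content was 47.6% in members and 45.5% in the others, and the median length was 22 bases in each. The reads in the 3 libraries together, on which the rule sets its minimum, had a median of 2690 in members and 2354 in the others. These are descriptions of a chosen set, and arms of 1 hairpin and names that share reads are not independent.

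Lists of miRNAs by role, matched by the files' names, showed where members did and did not fall, beside a median log2 ratio of 0.02 over all rated miRNAs and a share of members of 21.1%. The lists are short, so a count near that share, or of 0 in a list of a few miRNAs, says little about a list. Names were not checked against sequences. The unassigned hairpins, with the members unassigned-3-5p, unassigned-7-5p, unassigned-2-5p and unassigned-4-5p, were on no list, whatever their sequence. List counts, medians and sums therefore hold for the files' names only. Of 15 rated miRNAs on the pigmentation list, 4 were members, all higher (11.0% of all rated miRNAs were higher members), and they were the arms of miR-204 and of miR-101-1. The list's median log2 ratio was 0.05. Of the others on it, miR-148a-3p stood at 25036 CPM in Cui Hei, 26610 CPM in Kaiya and 28538 CPM in Liancheng. miR-125b-5p lay between the white breeds, at 6379 CPM in Cui Hei, 6745 CPM in Kaiya and 5322 CPM in Liancheng, and so did miR-21-5p, at 24156 CPM in Cui Hei, 18572 CPM in Kaiya and 38274 CPM in Liancheng. miR-222a-3p, which with miR-221 targets KIT in human melanoma cells, lay between them too, at 4365 CPM in Cui Hei, 4566 CPM in Kaiya and 3623 CPM in Liancheng.

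By the files' names, 8 rated miRNAs were on the keratinocyte and epithelium list, with a median log2 ratio of -0.11. Of these 0 were members, against 21.1% of all rated miRNAs. The summed level of these 8 was 106591 CPM in Cui Hei, 135145 CPM in Kaiya and 104345 CPM in Liancheng, so Cui Hei was close to Liancheng. Further miRNAs of this and the other lists may be among the unassigned hairpins or under other names. The counts, medians and sums therefore do not cover a list in full. Of 6 rated miRNAs named on the dermal mesenchyme list 1 was a member (miR-214-5p, lower), with a list median of 0.07. The endothelial pair (the arms of miR-126), 1 muscle, 4 neural, 5 HOX-encoded and 4 miR-30 miRNAs held no member, with medians of -0.0044, 0.38, -0.19, -0.06 and -0.03. The neural miRNAs miR-9-5p and miR-9-3p lay below both white breeds, at 212 and 220 CPM in Cui Hei, 299 and 227 CPM in Kaiya and 247 and 356 CPM in Liancheng, by less than the gap. The neural miR-128-3p lay above both, at 1798 CPM in Cui Hei, 1435 CPM in Kaiya and 1780 CPM in Liancheng, also by less than the gap. The files name 8 rated miRNAs of the miR-17-92 families, with a median of 0.16. Of these 2 were members, the miR-106 names that count as 1 signal. No name in the files was miR-92, which that list includes. Since names were not checked against sequences, this does not show that the miRNA was absent. The only rated let-7 miRNA was a member. The family of miR-34 and miR-449c had 1 lower member of 3, with a median of -0.39, the miR-23/27/24 clusters 1 lower of 3, with 0.02, and the superfamily of miR-15 and miR-103 1 higher and 1 lower of 5, with 0.10.

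Erythroid miRNAs differed more between the libraries than most members. The erythroid arms miR-144-3p and miR-144-5p summed to 470 CPM in Cui Hei, 293 CPM in Kaiya and 78.0 CPM in Liancheng. Neither was a member, since the white breeds were far apart. miR-144-3p had log2 ratios of 0.84 to Kaiya and 2.54 to Liancheng with a gap of 1.71. miR-2188-5p, which is on no list here, had 0.19 and 3.68 with a gap of 3.48. In the F2 the erythroid sum was 388 CPM in black birds and 211 CPM in white birds, so it was higher in black libraries in both settings, as was miR-204-5p. The part of erythroid content in the miR-204 ratios and in the other results was not tested. Of the leukocyte list, the files' names held only the arms of miR-146b, and 1 of the 2, miR-146b-2-3p, was a member. These arms summed to 50390 CPM in Cui Hei, 64407 CPM in Kaiya and 56951 CPM in Liancheng. Unassigned hairpins were not matched to this list, so the sum stands for miR-146b and not for leukocyte miRNAs as a whole.

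**Figure D5:**
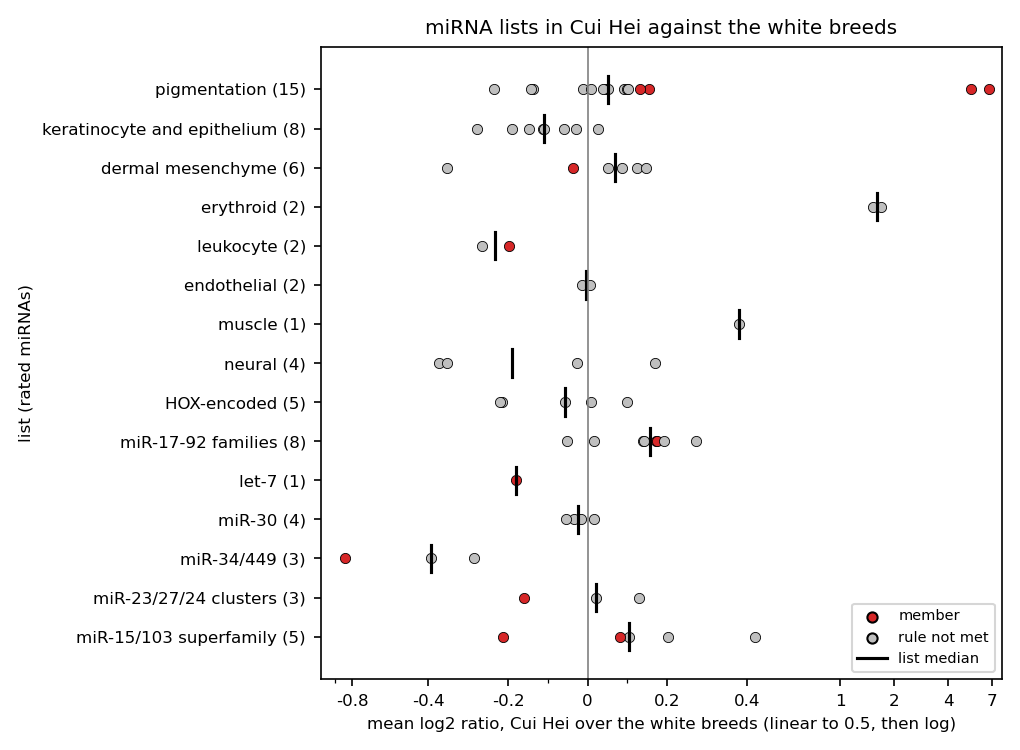
Mean log2 ratio of Cui Hei to the white breeds (horizontal axis, linear to 0.5 and logarithmic beyond) for each rated miRNA of 15 lists, with the number rated in brackets; red points are members, grey points are not, and black bars are list medians. The miR-204 arms stand alone at the right of the pigmentation row, and the erythroid arms, with a list median of 1.60, are not members.

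The 5 highest mean ratios outside the members came from miRNAs on which the white breeds were far apart. These were miR-2188-5p, miR-144-3p, miR-2188-3p, miR-144-5p and miR-130a-5p, all above both white breeds and all with a gap above 1. Among those with a low mean ratio, miR-6564-3p had 707 CPM in Cui Hei, 522 CPM in Kaiya and 2054 CPM in Liancheng, so it lay between the white breeds. The most abundant miRNA, miR-10b-1-5p, had 136644 CPM in Cui Hei, 192044 CPM in Kaiya and 132054 CPM in Liancheng and lay between them as well. miR-10b-2-5p did so over a wider range, at 43487 CPM in Cui Hei, 102957 CPM in Kaiya and 19871 CPM in Liancheng. Among the other abundant miRNAs, miR-22-3p lay between the white breeds, at 70291 CPM in Cui Hei, 58795 CPM in Kaiya and 74596 CPM in Liancheng. miR-26a-5p, at 64158 CPM in Cui Hei, 64385 CPM in Kaiya and 80003 CPM in Liancheng, lay below both and miR-27b-3p, at 49115 CPM in Cui Hei, 46623 CPM in Kaiya and 43271 CPM in Liancheng, above both, each by less than the gap. unassigned-6-5p was not rated, since no Kaiya value was at hand. It had 92.0 CPM in Cui Hei and 88.9 CPM in Liancheng, a log2 ratio of 0.05 (-0.23 to 0.34), and 51.1 CPM in black and 29.3 CPM in white F2 birds.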

How the data were processed

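Per the labels' protocols and the design text, total RNA was extracted from feather bulbs with TRIzol, sequenced with Illumina chemistry and analysed with miRDeep2 2.1.2. The submitters' processing notes also name FastQC and Bowtie 0.12.2. A genome build was not given in the sources used here. The deposited tables list hairpins with their mature miRNAs, and the authors give a raw read count and a CPM value for each. Dividing each count by the sum of its table returned the deposited CPM within 0.005. A hairpin's deposited total count includes reads outside its listed mature sequences. Tables hold 72 hairpins for Kaiya and 73 for the others. A line without a sequence was found 5 times in Kaiya and 1 time in Cui Hei, and the sequence of the other tables was used.

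Raw counts were used, with a name on several lines taken once at its highest count. Libraries were scaled with TMM (edgeR 4.0.16, R 4.3.3) over all 5 libraries. A miRNA had to be listed in the 3 pure breed tables with at least 50 reads in them together. A member's log2 ratios to Kaiya and Liancheng had the same sign, and the smaller exceeded the absolute log2 ratio of Kaiya over Liancheng. Intervals are exact conditional binomial or Poisson intervals (SciPy 1.17.1). With 1 library per breed no test was run. The rule was also run on simulated counts with counting error only and equal white breeds. In the data the white breeds differed and the spread between pools is unknown. That run is therefore no support for the members. Alternatives were other scalings (DESeq2 1.42.0 size factors, upper quartile, library size, TMM over 3 libraries or without the most abundant miRNA), other read minimums, a pseudocount of 0.5, summed lines, hairpin totals, unlisted names as 0, the interval in place of the point value, and either white breed alone. All members were named, and the rule also allowed naming their other arms and numbered copies, the 3 nearest miRNAs on each side of the rule's edge, the 5 highest and lowest that failed it, the 10 miRNAs with most reads, and those on a list that reach 100 CPM, of which the text gives a part. The members and lists were chosen with earlier results of these data known. Names are the files' and were not checked against sequences, since no miRNA annotation was used. A name may therefore not be that of its sequence.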

Additional observations from a re-analysis of the deposited data

Results flagged for a closer look

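Of the 23 members, 10 had an F2 black over F2 white log2 ratio of the opposite sign to both pure breed ratios. With 1 library per group the difference between the settings was not tested. On the higher side in Cui Hei, the F2 log2 ratio was -0.41 for miR-181b-1,2-5p, -0.35 for miR-6612-3p, -0.24 for miR-101-1,2-3p, -0.15 for miR-1552-3p and -0.055 for unassigned-3-5p. On the lower side it was 0.61 for miR-214-5p, 0.35 for unassigned-4-5p, 0.19 for miR-190-5p, 0.14 for unassigned-2-5p and 0.018 for miR-15c-2-5p. The F2 counting interval held 0 for miR-1552-3p, unassigned-3-5p, miR-190-5p, unassigned-2-5p and miR-15c-2-5p.

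Reads outside the listed mature sequences of a hairpin were not counted for that hairpin in the comparison of mature miRNAs. On mir-27b-1 they stood at 23410 CPM in Cui Hei, 19340 CPM in Kaiya and 21107 CPM in Liancheng, and at 27263 CPM in F2 black and 33549 CPM in F2 white birds. On mir-18a-1 they stood at 18.3 CPM in Cui Hei, 17.4 CPM in Kaiya and 14.5 CPM in Liancheng. Each of these hairpins has the sequence of a numbered copy, mir-27b-2 or mir-18a-2, without its last base. The 3p arms of the copies were rated. miR-27b-3p stood at 49115 CPM in Cui Hei, 46623 CPM in Kaiya and 43271 CPM in Liancheng. miR-18a-2-3p stood at 18.85 CPM in Cui Hei, 18.74 CPM in Kaiya and 14.52 CPM in Liancheng. Whether the reads outside are reads of these rated arms was not tested.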

How the results depend on the processing

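The rule gave 23 members, 12 higher and 11 lower, 2 of them at least 2-fold from both white breeds. Library size alone gave 21 higher and 6 lower and upper-quartile scaling 7 lower. The 2-fold count was 3 with library size alone, 4 at a minimum of 10 reads, 1 at 200 reads and 7 with no minimum, where 18 were lower. With the interval beyond the point value of the gap 10 were left, 6 higher and 4 lower, of which 5 had the same sign in the F2 (13 in the main count). Hairpin totals gave 6 lower and 7 of the same sign in the F2. The mean log2 ratio of miR-214-5p was 0.058 with library size alone and 0.015 with upper-quartile scaling, and that of unassigned-4-5p 0.038 with library size alone. Of 207 values of members under alternatives, 171 moved by no more than the SD of the log2 ratios to Kaiya and to Liancheng, 33 by more, and 3 changed sign. Leaving out a white breed cannot exceed that SD by construction, and TMM over the 3 pure breed libraries left the values unchanged. The causes were not tested. Each breed is 1 pool, so the spread between birds is unknown, and miRNAs with few reads have wide intervals.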
